A study of Danio rerio with 3 samples.

Results

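The 8 genes described here encode transcription factors that act in the ectoderm and the early nervous system of zebrafish: sox2, sox3, sox19a, zic2b, irx7, tfap2a, otx1b and foxg1a. They were taken by name from a deposited table of 26437 genes, each name matched 1 row, and all 8 had values. In the blastula, the ectoderm is the part of the cell cap beneath the enveloping layer (its outermost cell sheet) that does not become mesoderm or endoderm. SoxB1 factors (sox2, sox3, sox19a and the maternal sox19b) hold those cells in a state that can become neural, Zic, Irx, Otx and Foxg factors later mark regions of the neural plate, and Tfap2 factors act in epidermis, plate border and neural crest. Before the embryo's own genome is switched on, a zebrafish embryo lives on RNA and protein supplied by the mother, and sox19b belongs with pou5f3 and nanog to the maternal factors that start zygotic transcription.

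RNA was sequenced from whole embryos of strain AB, in 3 libraries with 1 library per group. The groups were wild type at 4.3 hours post fertilization (hpf), which had reached dome stage (late blastula), embryos with the genotype MZ nup85-/-;nup133-/- at 4.3 hpf, whose title carries the stage tag 1k, and embryos of that double mutant genotype at 7 hpf, which had reached dome. MZ stands for maternal-zygotic, so the mutant embryos lack the normal genes for these nuclear pore scaffold proteins both in the mother's supply and in their own genome. The sources used here do not give how many embryos were pooled or which lesions the alleles carry. Levels are given in FPKM (fragments scaled by transcript length and library size), which compares genes per length and is a share of a library, not an amount per embryo. With 1 library per group there is no replicate error and no test: sizes are given as log2 ratios of FPKM + 1, which shrink differences of low values, or as plain ratios of FPKM, and a ratio past 2-fold on the FPKM + 1 scale is counted. At 4.3 hpf genotype and stage tag differ together and cannot be told apart. Between the dome libraries genotype and age (7 against 4.3 hpf) differ together and cannot be told apart, and between the mutant libraries age and stage tag do. In whole embryos fewer expressing cells and less RNA per cell cannot be told apart either.

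The table listed 25386 genes with values, and 14306 of them averaged 1 FPKM or more. That filter kept 7 of the 8 genes and left out sox2. Summed FPKM was 424486 in wild type, 397357 in the mutant at 4.3 hpf and 431333 in the mutant at 7 hpf, and counts are not given, so absolute depth is unknown. Of the mutated genes, nup133 had 11.7 FPKM in wild type, 0.31 in the mutant at 4.3 hpf and 1.91 at 7 hpf, and nup85 had 13.2, 10.3 and 9.55. Markers of other parts of the embryo differed widely between the libraries. The 5 enveloping layer markers, all keratin genes, summed to 105 FPKM in wild type, 0.36 in the mutant at 4.3 hpf (krt92 listed at 0) and 1764 in the mutant at 7 hpf, and the 7 mesoderm and endoderm markers summed to 121, 6.37 and 655. The 5 yolk syncytial layer markers summed to 90.7, 3.89 and 289.7 FPKM, with hnf4a, mtp and slc26a1 listed at 0 in the mutant at 4.3 hpf. The 5 markers of maternal supply and deep cells summed to 2028, 2016 and 2010 FPKM, but single members differed. In the mutant at 4.3 hpf 3 (buc, dazl and sox19b) were past 2-fold higher than in wild type, beside 16.6% of the 14306 genes. At 7 hpf 2 (buc and sox19b) were past 2-fold lower and 1 (pou5f3) was past 2-fold higher, beside 12.5% and 13.9% of the 14306 genes. Of these, buc had 124, 274 and 20.4 FPKM and pou5f3 520.3, 533 and 1096. The 4 markers of differentiated neurons summed to 17.2, 6.75 and 11.5 FPKM, of which tubb5 gave 15.4, 5.79 and 10.5 and gad1b was listed at 0 in all 3 libraries. The part of these shifts in the levels of the 8 genes was not tested.

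The 8 genes fell into 4 patterns over the libraries. Transcripts of sox3, sox19a and zic2b were low in the mutant at 4.3 hpf and in the mutant at 7 hpf stood above wild-type dome. Those of sox2, tfap2a and irx7 were also low in the mutant at 4.3 hpf, and at 7 hpf they lay within 2-fold of wild type. The foxg1a transcript was near 0 in both mutant libraries, and otx1b had the opposite course, highest in the mutant at 4.3 hpf and lowest in the mutant at 7 hpf.

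**Figure D1:**
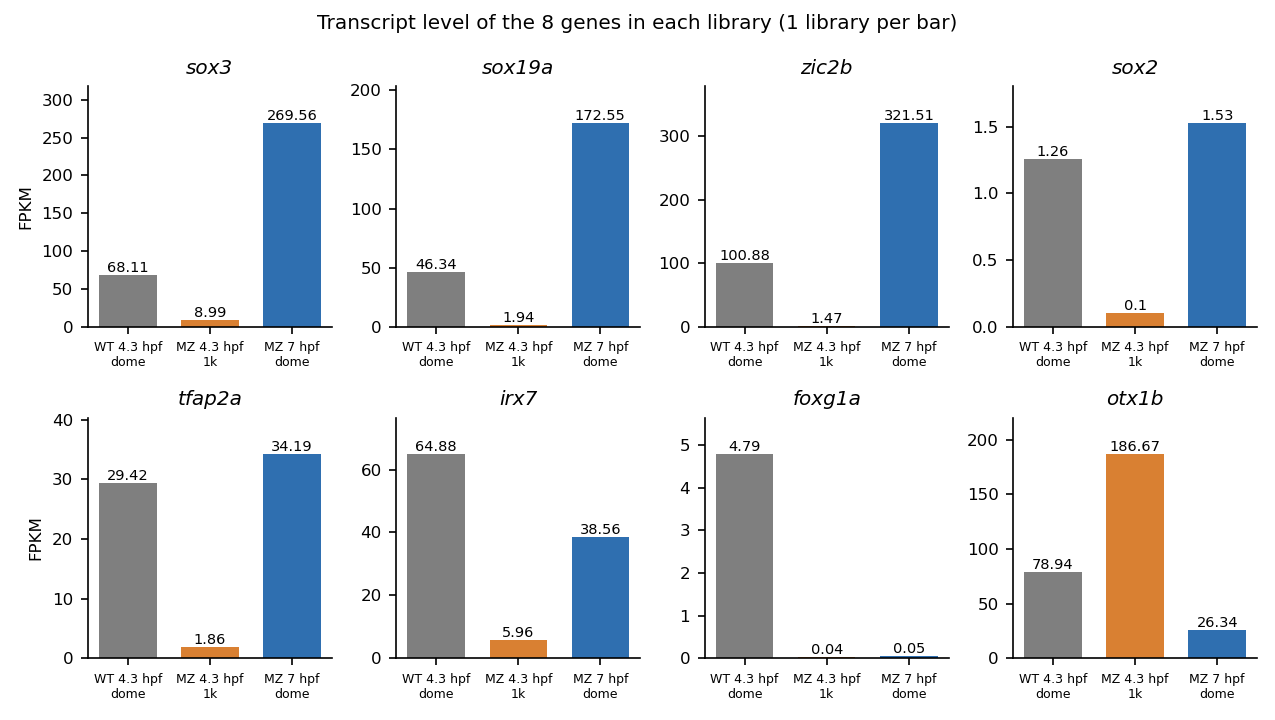
Level of each of the 8 genes in FPKM (vertical axes, linear from 0, a different scale for each gene) in the wild-type library and both libraries of the double mutant, 1 library per bar with the deposited value above it. In 7 genes the bar of the mutant at 4.3 hpf lies below wild type, whereas otx1b is at its highest there (187 FPKM), and foxg1a is at 0.05 FPKM or less in both mutant libraries.

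Among SoxB1 genes, sox3 (gene 30529) had 68.1 FPKM in wild-type dome, 8.99 in the mutant at 4.3 hpf and 269.6 in the mutant at 7 hpf. The library of the mutant at 4.3 hpf thus held 13.2% of the wild-type level and that of the mutant at 7 hpf 3.96 times the wild-type level, with log2 ratios of -2.79 and 1.97. Its relative sox19a (gene 30038), one of the earliest pan-neural genes of the fish embryo, had 46.3, 1.94 and 172.6 FPKM. These values correspond to 4.19% of wild type at 4.3 hpf and a plain ratio of 3.72 at 7 hpf, with log2 ratios of -4.01 and 1.87. Between the mutant libraries sox3 was 30.0 times and sox19a 88.9 times higher at 7 hpf.

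The third of these genes, sox2 (gene 378723), which keeps neural progenitors and is used across vertebrates as a marker of neural plate, was a minor transcript at both stages. It had 1.26 FPKM in wild type, 0.10 in the mutant at 4.3 hpf and 1.53 in the mutant at 7 hpf. The plain ratio of wild type to the mutant at 4.3 hpf was 12.6, and rounding of the deposited values alone allows 12.0 to 13.3. On the FPKM + 1 scale the log2 ratio was -1.04, just past 2-fold, and with 5 FPKM added in place of 1 it was -0.30. At 7 hpf the log2 ratio to wild type was 0.16, but with proteasome genes as the scale it was -0.07, so no direction is given. In the RefSeq annotation sox2 overlaps a long noncoding gene, sox2ot, and sox3 and sox19a each overlap another one. None of these noncoding genes has a value used here, and whether the libraries kept strand is not given.

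The SoxB1 family as a whole was abundant in every library, but its make-up differed. Its 6 genes summed to 245 FPKM in wild type, 324 in the mutant at 4.3 hpf and 474 in the mutant at 7 hpf. The maternal sox19b (gene 64812), which is not 1 of the 8 genes, made up 52.6% of the sum in wild-type dome, 96.6% in the mutant at 4.3 hpf and 6.36% in the mutant at 7 hpf. In wild type sox3 held 27.8% and sox19a 18.9% of the family. In the mutant at 4.3 hpf these shares were 2.78% and 0.60%, and in the mutant at 7 hpf 56.9% and 36.4%. Such shares are formed within a library and do not depend on how libraries are scaled to each other. For 1 transcript of sox19a there were 2.78 of sox19b in wild type and 161 in the mutant at 4.3 hpf, and at 7 hpf the balance was turned, with 5.72 of sox19a for 1 of sox19b, per length. The ratio of sox3 to sox19a was alike at the dome stages, 1.47 in wild type and 1.56 in the mutant at 7 hpf, and was 4.63 in the mutant at 4.3 hpf. The paralogs sox1a and sox1b, which act in the later nervous system, reached at most 0.46 FPKM in any library, with sox1b listed at 0 in all 3.

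**Figure D2:**
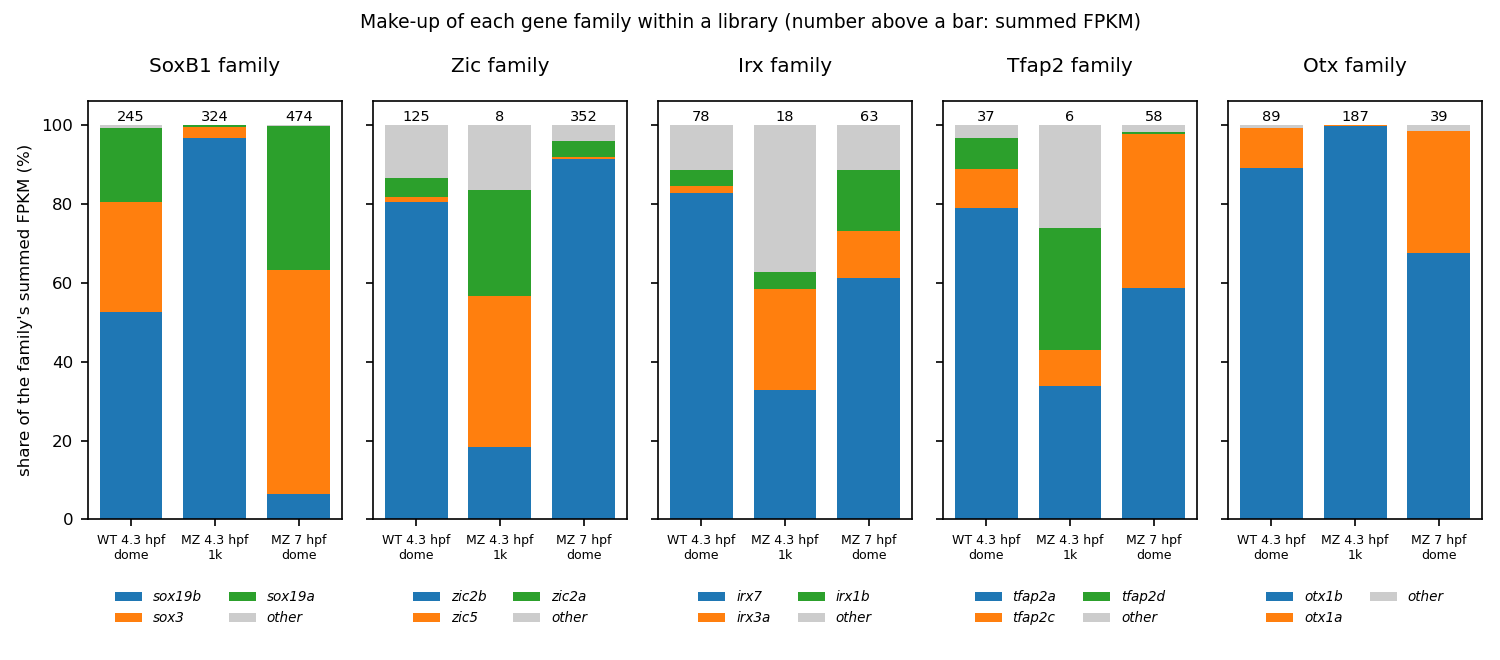
Share of each gene in the summed FPKM of its family (vertical axis, percent) in the 3 libraries, with the family's summed FPKM above each bar. Genes that never reach 15% are pooled as other. sox19b fills 96.6% of the SoxB1 bar in the mutant at 4.3 hpf and 6.36% at 7 hpf, and zic2b fills 80.5% of the Zic bar in wild type and 18.4% in the mutant at 4.3 hpf.

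The zinc finger gene zic2b (gene 570746), a factor of the neural plate and its border, had the widest range of the 8 genes. Its level was 100.9 FPKM for wild type, 1.47 for the mutant at 4.3 hpf and 322 for the mutant at 7 hpf. It was the highest of the 8 in wild type and again in the mutant at 7 hpf, but sixth in the mutant at 4.3 hpf. Its log2 ratio of -5.37 at 4.3 hpf was undercut by 26 of the 14306 genes, and its ratio between the mutant libraries, 7.03, was exceeded by 22. In plain FPKM the mutant at 7 hpf held 219 times the level of the mutant at 4.3 hpf and 3.19 times that of wild-type dome.

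The other Zic genes did not all share this course. zic2a had 6.23, 2.15 and 14.5 FPKM. zic5 had 1.45, 3.06 and 1.36 FPKM, and it was the leading Zic transcript of the mutant at 4.3 hpf, with 38.2% of a family sum of only 8.01 FPKM. zic1, zic4 and zic6 stayed below 1 FPKM in every library. In the mutant at 7 hpf zic2b alone made up 91.4% of a sum of 352 FPKM.

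The Iroquois homeobox gene irx7 (gene 140746), which acts in the prepattern of the midbrain and hindbrain, had 64.9 FPKM in wild type, 5.96 in the mutant at 4.3 hpf and 38.6 in the mutant at 7 hpf. The level at 7 hpf was 59.4% of that of wild-type dome, a log2 ratio of -0.74, and it was below wild type under each of the 4 other scalings, past 2-fold (-1.13) with proteasome genes as the scale. At 4.3 hpf the log2 ratio was -3.24 and 9.19% of the wild-type level was present. Of the 11 Irx genes with values, irx7 was the most abundant in each library, with 82.8% of the family sum in wild type, 32.9% in the mutant at 4.3 hpf and 61.2% at 7 hpf. irx1b (3.17, 0.78 and 9.84 FPKM) followed the course of sox3 at a lower level. irx3a was higher than wild type in both mutant libraries, at 1.41, 4.64 and 7.45 FPKM, and irx3b had 4.09, 1.96 and 3.94. The remaining 7 Irx paralogs had at most 2.03 FPKM in any library.

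The gene tfap2a (gene 140618), which encodes the AP-2 alpha factor of non-neural ectoderm and neural crest, had 29.4 FPKM in wild type, 1.86 in the mutant at 4.3 hpf and 34.2 in the mutant at 7 hpf. The library of the mutant at 4.3 hpf held 6.32% of the wild-type level, with a log2 ratio of -3.41. At 7 hpf the log2 ratio was 0.21, and it was -0.18 with proteasome genes as the scale, so its direction there depends on the scaling. Its paralog tfap2c, which works with tfap2a in ectoderm and crest, had 3.74, 0.51 and 22.8 FPKM and a log2 ratio of 2.33 at 7 hpf. The ratio of tfap2a to tfap2c within a library was therefore 7.87 in wild-type dome, 3.65 in the mutant at 4.3 hpf and 1.5 in the mutant at 7 hpf. tfap2b, tfap2d and tfap2e had at most 2.91 FPKM in any library. The reference annotation places the coding gene tmem14ca over part of tfap2a. It had 7.18, 6.29 and 5.81 FPKM, and reads shared between these genes could not be examined.

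The winged-helix gene foxg1a (gene 30274), a regulator of the later telencephalon, had 4.79 FPKM in wild-type dome, 0.04 in the mutant at 4.3 hpf and 0.05 in the mutant at 7 hpf. Of the 8 genes, it alone was near 0 in both mutant libraries. Both mutant values lie within a few steps of the 0.01 FPKM to which the table is rounded, and the plain ratio of wild type to the mutant at 7 hpf is 87.0 to 107 by rounding alone. The log2 ratios to wild type were -2.48 and -2.46, and 62 of the 14306 genes had a lower ratio at 7 hpf. Its mean of 1.63 FPKM passed the filter through wild type alone, so this rank is no support for its low level. With 5 FPKM added in place of 1 the log2 ratios became -0.96 in both cases and no longer passed 2-fold. The paralogs foxg1c and foxg1d had at most 0.34 FPKM and were highest in wild type, and foxg1b had no value. Among other forebrain genes rx3, needed for the eye field, had 5.24, 0.13 and 0.62 FPKM, six3a had 0.52, 2.33 and 0.36, emx3 had 1.38, 4.49 and 1.55, and hesx1 had 0.40, 0 and 6.79. At 7 hpf rx3 was thus past 2-fold lower than wild type, hesx1 past 2-fold higher, and six3a and emx3 within 2-fold. Also of the forebrain, fezf2 had 0.58, 0.25 and 0.06 FPKM, six3b 0.16, 0.03 and 0.07, and dmrta2 0.08, 0.27 and 0. Of the same list, pax6a had 0.10, 0.02 and 0.03 FPKM, pax6b 0.23, 0.54 and 0.29, and lhx2b 0.05, 0.09 and 0.24. six7 had 0.09, 0.04 and 1.74 FPKM, past 2-fold higher at 7 hpf with a log2 ratio of 1.33. At 7 hpf fezf2, six3b, dmrta2 and pax6a were below wild type and pax6b, lhx2b and six7 above it, all at levels too low to be read.

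The homeobox gene otx1b (gene 30500, named otx1 in the RefSeq table), of the Orthodenticle family that patterns forebrain and midbrain, had 78.9 FPKM in wild type, 187 in the mutant at 4.3 hpf and 26.3 in the mutant at 7 hpf. It was 2.36 times higher in the mutant at 4.3 hpf than in wild type and 3.0 times lower in the mutant at 7 hpf, with log2 ratios of 1.23 and -1.55. Between the mutant libraries the log2 ratio was -2.78, and 89 of the 14306 genes had a lower one. Of the summed FPKM of the 8 genes, otx1b made up 20% in wild type, 90.2% in the mutant at 4.3 hpf and 3.05% in the mutant at 7 hpf. Without it the other 7 genes summed to 316, 20.4 and 838 FPKM.

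The course of otx1b was that of the maternal sox19b, whose levels were 129, 313 and 30.1 FPKM (log2 ratios to wild type of 1.27 and -2.06), and not that of its own paralogs. Of the other markers of maternal supply and deep cells, buc shared this course. nanog (1244, 861 and 850 FPKM), pou5f3 and dazl did not. otx1a (named otx2a in the RefSeq table) had 8.86, 0.33 and 12.1 FPKM, or -2.89 and 0.41 as log2 ratios to wild type. The within-library ratio of otx1b to otx1a was 8.91 in wild-type dome, 566 in the mutant at 4.3 hpf and 2.18 in the mutant at 7 hpf. otx2 (otx2b in that table) and crx had at most 0.64 FPKM. Only 126 of the 14306 genes, or 0.88%, were past 2-fold higher in the mutant at 4.3 hpf and past 2-fold lower in the mutant at 7 hpf than wild type, and otx1b was among them. Whether the otx1b transcript was supplied by the mother was not tested.

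Set side by side, 7 of the 8 genes were past 2-fold lower and 1 was past 2-fold higher in the mutant at 4.3 hpf than in wild type of that age. Over the 14306 genes, 9.60% were lower and 16.6% higher by that rule (1373 and 2378 genes, or 1694 and 1826 when scaled by the median of ratios). The median log2 ratio of the 8 genes was -3.02, where that of the 14306 genes was 0.16. The filter behind the 14306 genes leaves out sox2. Of the other 7 genes, 6 were lower and 1 higher, with a median of -3.24. Among these 6, foxg1a passed the filter through wild type alone. The 8 genes were chosen with earlier results of these data known, so these counts and medians are description and no independent support. At 4-fold 6 of the 8 were lower and 0 higher, with 3.40% of all genes lower and 2.48% higher at that size. What was left in the mutant at 4.3 hpf differed among the 7 lower genes, from 0.84% of the wild-type level for foxg1a and 1.46% for zic2b to 9.19% for irx7 and 13.2% for sox3. From the highest level to the lowest, the order was zic2b, otx1b, sox3, irx7, sox19a, tfap2a, foxg1a and sox2 in wild type. In the mutant at 4.3 hpf it was otx1b, sox3, irx7, sox19a, tfap2a, zic2b, sox2 and foxg1a, and at 7 hpf zic2b, sox3, sox19a, irx7, tfap2a, otx1b, sox2 and foxg1a. With no replicates it cannot be said which neighbours in these orders differ. In the mutant at 4.3 hpf sox19a, tfap2a and zic2b lay between 1.47 and 1.94 FPKM.

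Against wild type at the same dome morphology, 3 of the 8 genes (sox3, sox19a and zic2b) were past 2-fold higher in the mutant at 7 hpf and 2 (foxg1a and otx1b) past 2-fold lower. The shares over all genes were 13.9% higher and 12.5% lower (1986 and 1793 genes, or 1337 and 3308 with proteasome genes as the scale). The median log2 ratio was 0.19 for the 8 genes and -0.05 for all genes, and the former was -0.13 with proteasome genes as the scale. Without sox2, which the filter behind the shares leaves out, 3 genes were higher and 2 lower, with a median of 0.21. At 4-fold, 0 of the 8 were higher and 1 (foxg1a) was lower, with 4.17% of all genes higher and 1.35% lower; sox3 came close with 1.97. This comparison and the preceding one share the wild-type library. Low at 4.3 hpf and high at 7 hpf by 2-fold, the course of sox3, sox19a and zic2b, was found in 376 of the 14306 genes (2.63%). The course of tfap2a and irx7, low and then within 2-fold, was found in 586 genes, and low in both, the course of foxg1a, in 411. A gene low in both mutant libraries can pass the filter through wild type alone, as foxg1a did.

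Between the mutant libraries, 6 of the 8 genes were past 2-fold higher at 7 hpf, 1 (otx1b) was past 2-fold lower and foxg1a lay at 0.01 on the log2 scale (-0.0065 with proteasome genes as the scale). Of all genes, 13.8% were higher and 22.2% lower. These are 1980 and 3177 genes, which became 2355 and 2349 when scaled by the median of ratios and 1596 and 4939 with proteasome genes as the scale. At 4-fold 5 of the 8 were higher and 1 was lower, with 7.52% of all genes higher and 4.68% lower. The median log2 ratio was 3.06 for the 8 genes and -0.22 for all genes. Without sox2, which the filter behind the shares leaves out, 5 genes were higher and 1 lower, with a median of 3.62. The ratios above 1 ran from 1.2 for sox2 through 2.51 for irx7, 3.62 for tfap2a, 4.76 for sox3 and 5.88 for sox19a to 7.03 for zic2b. This comparison uses the mutant libraries that also enter the comparisons with wild type.

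**Figure D3:**
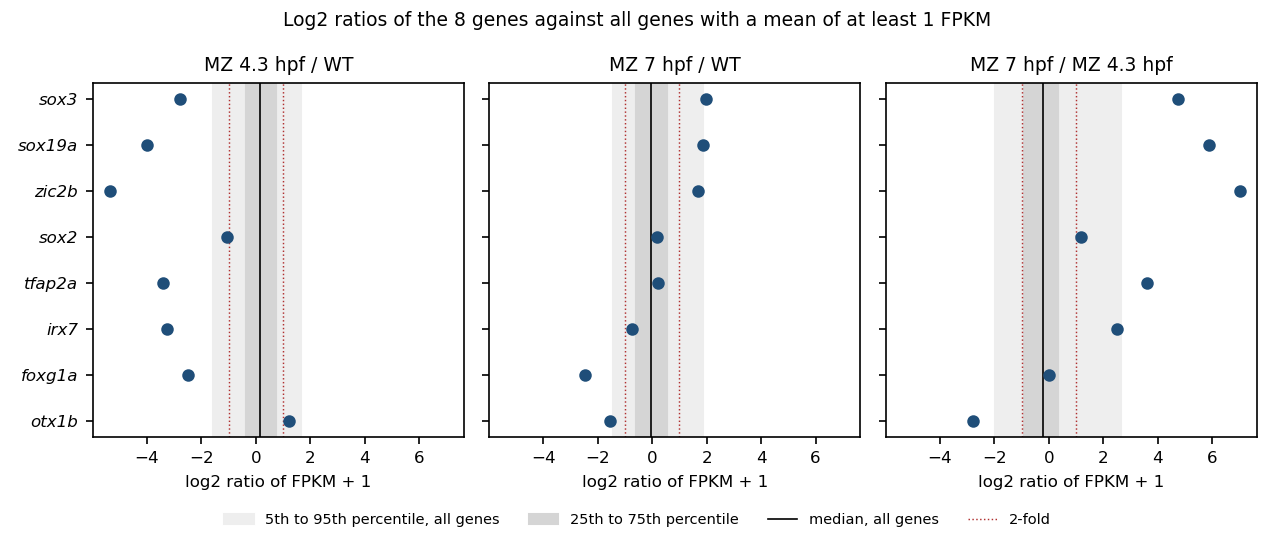
Log2 ratios of FPKM + 1 (horizontal axes) of the 8 genes in the 3 comparisons, as points, over the spread of the 14306 genes that averaged 1 FPKM or more, as grey bands (dark from the 25th to the 75th, light from the 5th to the 95th percentile), with the median of all genes as a black line and 2-fold as dotted lines. In the comparison at 4.3 hpf 6 genes lie left of the outer band and otx1b lies right of the median, and in the comparison of the mutant at 7 hpf with wild type foxg1a and otx1b lie left of the outer band and sox3 and sox19a just right of it.

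Other genes of the ectoderm were counted by the same 2-fold rule, over all list members with values. Whole embryos do not separate ectoderm from the enveloping layer, so the tissue that held these transcripts is not known. The shares over all genes, among those averaging 1 FPKM or more, were 9.60% lower and 16.6% higher at 4.3 hpf and 12.5% lower and 13.9% higher at 7 hpf. Of 17 non-neural ectoderm genes, 16 had values. In the mutant at 4.3 hpf 9 of these were past 2-fold lower than wild type and 2 past 2-fold higher, and at 7 hpf 0 were lower and 5 higher. The epidermal factor genes gata3 (40.9, 0.63 and 79.0 FPKM) and gata2a (23.2, 0.66 and 53.1) and the grainyhead gene grhl3 (107, 6.99 and 151) had the lowest log2 ratios of FPKM + 1 at 4.3 hpf (-4.68, -3.87 and -3.76). In plain FPKM the order differs, since grhl1 had 0.07 beside 5.90 in wild type. foxi1, an early non-neural ectoderm gene, had 24.0, 2.60 and 39.4 FPKM. At 7 hpf bambia, which encodes a decoy receptor that dampens Bmp signals, had the largest ratio, at 25.1, 11.3 and 139.8 FPKM, followed by grhl1 (5.90, 0.07 and 33.5) and klf2b (10.4, 2.78 and 42.4). The 2 that were higher at 4.3 hpf were msx1b (0.87, 6.68 and 2.82) and tp63 (0.86, 4.25 and 2.33). The median log2 ratio of the 16 genes was -1.34 at 4.3 hpf and 0.66 at 7 hpf. Of these, 11 averaged 1 FPKM or more, the filter behind the shares. Among the 11 also 9 were lower and 2 higher at 4.3 hpf, and 0 lower and 5 higher at 7 hpf. Their medians were -2.46 and 0.94, beside 0.16 and -0.05 for all genes, but a gene can pass that filter through its high library alone.

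Of 26 genes of the neural plate and brain regions, all with values, 7 were past 2-fold lower and 2 higher at 4.3 hpf, and 3 lower and 6 higher at 7 hpf. Of these, 15 were below 1 FPKM in wild-type dome, and the median log2 ratios were -0.19 and 0.02. Among the 11 that averaged 1 FPKM or more, 6 were lower at 4.3 hpf with a median of -2.09, but a gene can pass that filter through its high library alone. The 3 lower at 7 hpf and the 2 higher at 4.3 hpf were counted over all 26 genes, whereas the shares over all genes carry the filter. Of the 11 under the same filter, 2 were lower at 7 hpf and 2 higher at 4.3 hpf, beside 12.5% and 16.6% of all genes. No result about the list is read from these counts. her5, a repressor gene of the midbrain-hindbrain region that is also expressed in endoderm, had 102 FPKM in wild type, 1.04 in the mutant at 4.3 hpf and 29.6 at 7 hpf. The forkhead gene foxd5 had 25.02, 0.14 and 73.7 FPKM, and the SoxC gene sox11a 43.7, 1.72 and 108. Its paralog sox11b was high in every library, at 194, 171 and 226. foxb1a, a forkhead gene of the neural plate, had 10.7, 0.03 and 11.5 FPKM. Among the genes searched it was nearest to tfap2a in pattern on the FPKM + 1 scale, where low values are shrunk. rx3 and her5 joined foxg1a among the genes past 2-fold lower at 7 hpf, with log2 ratios of -1.95 and -1.75, and the third of the list, her3, had 2.07, 0 and 0.27 FPKM. Higher at 7 hpf were znf703 (1.27, 0.26 and 11.9) and hesx1, with log2 ratios of 2.51 and 2.48.

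Of 8 plate border and neural crest genes, 2 were past 2-fold lower and 0 higher at 4.3 hpf. At 7 hpf 1 was lower and 0 higher. Of the 5 that averaged 1 FPKM or more, also 2 were lower at 4.3 hpf and 1 at 7 hpf. Over all genes under that filter, 9.60% were lower and 16.6% higher at 4.3 hpf, and 12.5% lower and 13.9% higher at 7 hpf. No result about the list is read from these counts of 1 or 2 genes. The crest factor gene foxd3, active already in the blastula, had 25.9, 0.03 and 13.8 FPKM, and snai2 had 96.1, 19.1 and 134.9. sox9b was the lower gene at 7 hpf, with 12.4, 6.77 and 1.49 FPKM.

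**Figure D4:**
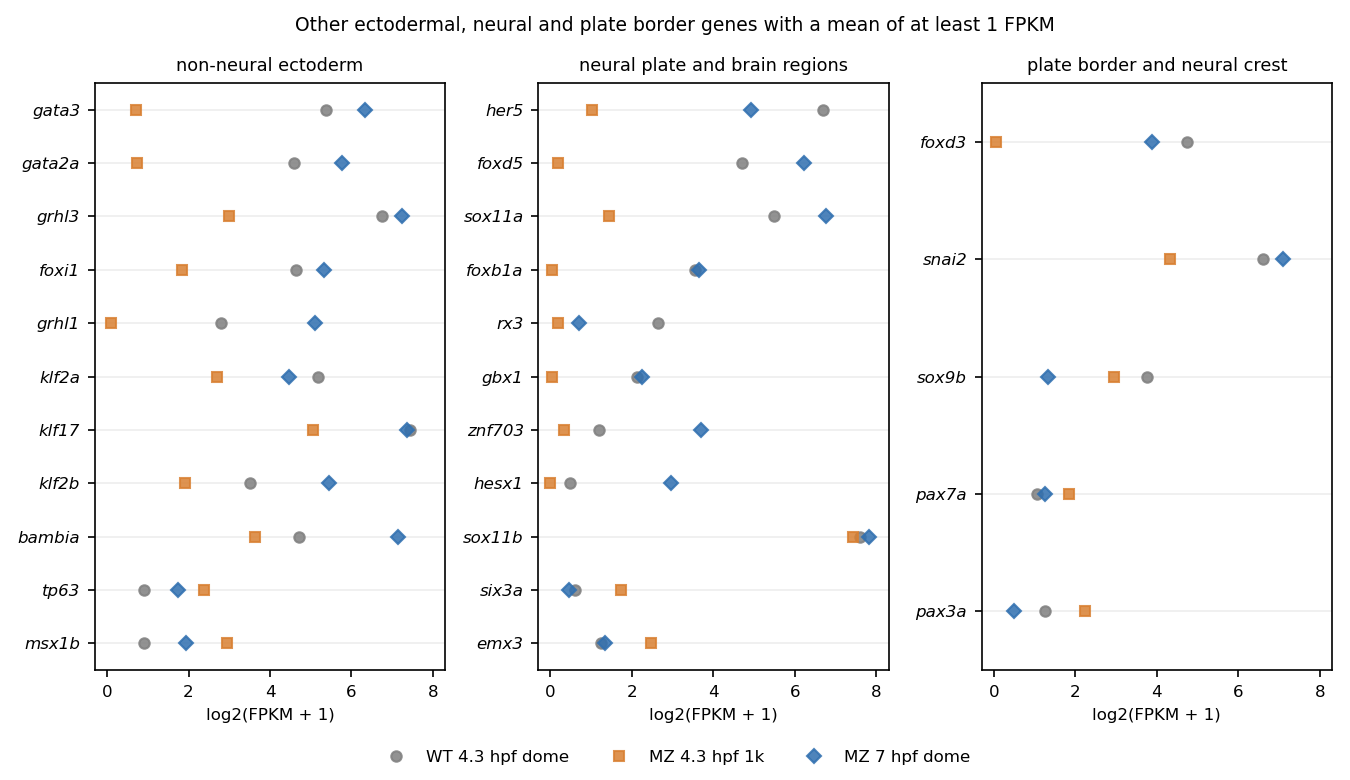
Levels as log2(FPKM + 1) (horizontal axes) of the 27 non-neural ectoderm, neural plate and plate border genes that averaged 1 FPKM or more, ordered by their ratio at 4.3 hpf, with wild type as grey circles, the mutant at 4.3 hpf as orange squares and the mutant at 7 hpf as blue diamonds. In gata3, foxd5 and foxd3 the square lies near the left edge and far from both other symbols, and sox11b holds all 3 symbols close together.

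The genes whose course over the 3 libraries was most like that of each gene were read by the distance between mean-centred log2 values, with 3 libraries as the only points. Nearest to otx1b were slc25a25b (11.2, 28.4 and 3.03 FPKM), the Ets factor gene etv5a (75.4, 185 and 24.3) and the germ cell gene tdrd1 (19.5, 43.5 and 5.50), at distances of 0.06 to 0.09. etv5a matched otx1b in level as well as in course. Nearest to zic2b were sult6b1 (43.8, 0.24 and 158), lrwd1 (72.9, 0.92 and 214) and the cyclin gene ccnd1 (70.2, 1.33 and 356), at 0.15 to 0.48. Nearest to sox3 were apoc1, pcdh1b and znfl1, at 0.04 to 0.06, and nearest to sox19a cebpb, vox and foxa3, at 0.20 to 0.25. For foxg1a they were rassf8b, fgf12b and crp7 (0.11 to 0.12), for irx7 tsc22d3, lpar3 and ip6k2b (0.10 to 0.15), for tfap2a foxb1a, znf1046 and fam46ba (0.08 to 0.23) and for sox2 asb5b and rps10 (0.03 and 0.05).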

How the data were processed

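The deposited table holds 1 FPKM column per library, made by the authors and rounded to 0.01, per the file headers. Build GRCz11 and the tools RSEM 1.2.8, Bowtie2 2.2.5 and Trimmomatic 0.36 appear, without role or order, in the submitters' processing notes. The sources used here do not give poly(A) selection, strand or how reads of near-identical or overlapping genes were divided. Of 26437 rows, 1051 hold no value and were left out. Libraries were grouped by their titles and compared as log2 ratios of FPKM + 1 (pseudocount of 1), with counts over the whole table limited to genes averaging 1 FPKM or more and no such filter for the 8 genes and the lists. With 1 library per group no test was made. A RefSeq gene table of GRCz12tu, which holds 91.5% of the gene IDs, was used for names, types and order of genes alone. The most frequent ratios of low values between libraries (0.99 to 1.05) give only a weak guide to relative depth. The 8 genes and the lists were chosen with earlier results of these data known. Named genes are the 8, their paralogs, the mutated genes, up to 4 list members per direction and comparison, past 2-fold and at 5 FPKM or more in their higher library, and the 3 nearest patterns; some genes of this rule are not reported here. Genes named outside this rule (her3, six3a, emx3, fezf2, six3b, dmrta2, pax6a, pax6b, lhx2b, six7, tp63, pax3a, pax7a, sox11b, tubb5 and the neighbouring genes) were chosen after their values were seen. The single markers buc, dazl, nanog, pou5f3, krt92, hnf4a, mtp, slc26a1 and gad1b came from the marker lists and also lie outside this rule. Alternatives were pseudocounts of 0.1 and 5, thresholds of 4-fold and 8-fold, other filters, coding genes only and 4 other scalings. The counting was tested on simulated data, with 8-fold changes planted in genes averaging 5 FPKM or more and an assumed depth. The planted changes do not reach levels as low as those of sox2 and foxg1a, and the spread between embryos was not simulated. Python 3.11.15, numpy 2.4.6, pandas 2.3.3 and matplotlib 3.10.9 were used.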

Additional observations from a re-analysis of the deposited data

How the results depend on the processing

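No paired analysis was possible because each group has 1 library. Under the 4 other scalings the counts of the 8 genes moved by at most 1.5 times in the 3 comparisons, and the reversals all came with scaling on proteasome genes: the median of the 8 genes at 7 hpf against wild type (-0.13), sox2 (-0.071) and tfap2a (-0.18) there, and foxg1a between the mutant libraries (-0.0065). That scaling shifted the median of all genes by -0.35 at 7 hpf against wild type and by -0.41 between the mutant libraries, and counted 3308 and 4939 lower genes in place of 1793 and 3177. Scaling by the median of ratios shifted it by -0.16 at 4.3 hpf and by 0.23 between the mutant libraries. The median of the 8 genes at 4.3 hpf was -3.67 with a pseudocount of 0.1 and -2.36 with 5, which also gave 2.25 between the mutant libraries and 1 lower gene of the 8 at 7 hpf against wild type. With a pseudocount of 5, only 5 of the 8 were lower at 4.3 hpf, in place of 7. Between the mutant libraries 5 were higher, in place of 6. At 4-fold, 0 of the 8 were higher at 4.3 hpf, and 1 was lower and 0 higher at 7 hpf. At 8-fold 4 were lower and 0 higher at 4.3 hpf, 0 lower and 0 higher at 7 hpf, and 0 lower and 4 higher between the mutant libraries. The share over all genes was not counted at 8-fold, so no result is read from these counts. Lower and higher genes over the whole table, with 1373 and 2378 at 4.3 hpf, 1793 and 1986 at 7 hpf and 3177 and 1980 between the mutant libraries, became 620 and 1008, 788 and 950, and 1823 and 1193 with a pseudocount of 5. At 4-fold they were 486 and 355, 193 and 597, and 670 and 1076. With a filter at a mean of 5 FPKM, 847 lower and 1495 higher genes were left at 4.3 hpf, 1086 higher at 7 hpf and 1051 higher between the mutant libraries, since fewer genes were counted. FPKM without counts gives no depth limit for sox2 and foxg1a, whose low values are the least certain of the 8.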

Other observations

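Of the following genes, pax3a and pax7a were named after their values were seen, and sox21a was named by the rule for paralogs. The SoxB2 gene sox21a, a repressor-type relative of the SoxB1 genes in the nervous system, had 1.44 FPKM in wild type, 15.4 in the mutant at 4.3 hpf and 3.55 at 7 hpf, with a log2 ratio of 2.75 at 4.3 hpf. The neural crest gene pax3a, with a log2 ratio of 0.99 at 4.3 hpf, had 1.38, 3.73 and 0.40 FPKM and pax7a 1.08, 2.59 and 1.40, both within 2-fold of wild type at 4.3 hpf. Of the 31 paralogs of the 8 genes with values, 3 (sox19b, sox21a and irx3a) were past 2-fold higher at 4.3 hpf and 5 past 2-fold lower. The same 3 and 5 are found among the 13 paralogs that averaged 1 FPKM or more, the filter behind the 16.6% higher and 9.60% lower over all genes.

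Some coding genes lie next to the 8 in the RefSeq gene order. Beside zic2b, tm9sf2 had 32.5, 15.8 and 29.8 FPKM and pcca 33.9, 21.6 and 27.1. Beside otx1b, ehbp1 had 40.6, 55.5 and 34.4 FPKM and wdpcp 1.65, 1.41 and 0.49. Beside foxg1a, prkd1 and sptbn5 were below 1 FPKM in all 3 libraries, and beside sox19a, eif4a1b had 29.4, 48.7 and 41.5 FPKM.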
